A study of Mus musculus with 123 samples.

Results

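The PAR bZIP genes Dbp, Tef and Hlf and the related gene Nfil3 were followed through 6 h of enforced wakefulness and the recovery after it, in the cerebral cortex of mice. The set is the 4 genes by name, and all 4 were measured among the 13842 genes of the RNA table. Open chromatin was examined at the 9 ATAC-seq peaks, of 130727, that lie within 20 kb of the Dbp gene. PAR bZIP proteins are transcription factors with a proline and acidic amino acid rich stretch beside a basic leucine zipper. They bind D-box elements and activate transcription from them, while NFIL3 (also called E4BP4) binds the same elements and represses. In the circadian clock, CLOCK and BMAL1 drive Dbp through E-boxes, and the D-box factors pass the daily rhythm on to output genes and back to clock genes such as Per1.

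The animals were males of the inbred strain C57BL/6J, aged 11 to 12 weeks and kept in 12 h of light and 12 h of darkness. Deprived mice were kept awake by gentle handling from light onset (zeitgeber time 0, ZT0) to ZT6, and control mice slept at will. RNA was measured in 8 controls taken at ZT0, in 3 taken at ZT3, and in 5 for each of the times ZT6, ZT12 and ZT18. Deprived groups had 3 animals each and are named by hours from the start of the baseline day. Groups T27 and T30 were taken after 3 h and 6 h awake, and T36 and T42 later on that day. The next day gave T48, T54, T60 and T66, the day after it T72 and T78, and T192 and T198 followed after 7 days of recovery. The description of the T36 samples places them within the deprivation, whereas the protocol ends it 6 h earlier, and the protocol was followed. Groups T60, T66, T192 and T198 came wholly from batch 2, the other deprived groups wholly from batch 1, and the ZT3 controls from batch 1 alone. Each library is a separate animal, except that the RNA values of 1 ZT0 animal merge its 2 libraries, and each cortex was divided between RNA-seq and ATAC-seq. The cortex is bulk tissue, so fewer cells of a type and less RNA per cell cannot be told apart. RNA libraries had more than 36 M mappable reads each per the labels, with a median of 55 M. The labels give more than 25 M reads for ATAC libraries. Their reads in peaks are not in the labels and were inferred from the smallest step between signal values, at 2.21 M to 11.9 M. Of the markers of cortical neurons, 6 of 6 were measured, and their summed linear level lay between 4454 and 5529 in all groups. Deprived groups at the same time of day share their controls: ZT0 serves T48, T72 and T192, ZT6 serves T30, T54, T78 and T198, ZT12 serves T36 and T60, and ZT18 serves T42 and T66.

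The promoters of the 4 genes are shown because the clock and the cyclic AMP pathway are known to act on such genes through short elements. The windows run from 250 bases before to 50 bases after the gene start (RefSeq, build GRCm38.p6), and each of the 4 genes matched. Both strands were searched for the E-box CACGTG, the D-box forms TTATGTAA and TTACGTAA, and the cyclic AMP response element TGACGTCA, with matches in capitals. None of these letters overlaps another match in the windows shown.
Dbp, plus strand of chr7:45704997-45705296: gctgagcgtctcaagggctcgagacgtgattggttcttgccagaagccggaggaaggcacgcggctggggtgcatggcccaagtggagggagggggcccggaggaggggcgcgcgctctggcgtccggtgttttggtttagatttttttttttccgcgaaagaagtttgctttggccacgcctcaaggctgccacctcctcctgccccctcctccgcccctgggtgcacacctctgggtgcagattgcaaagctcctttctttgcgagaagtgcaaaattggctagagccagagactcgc
Tef, first of its listed starts, plus strand of chr15:81802423-81802722: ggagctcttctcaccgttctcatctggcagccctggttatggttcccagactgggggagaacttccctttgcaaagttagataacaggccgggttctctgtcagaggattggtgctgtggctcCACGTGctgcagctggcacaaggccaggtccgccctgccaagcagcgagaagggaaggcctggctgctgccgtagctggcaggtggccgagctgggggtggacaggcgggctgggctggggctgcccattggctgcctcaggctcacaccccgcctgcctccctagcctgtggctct
Hlf, minus strand of chr11:90390868-90391167: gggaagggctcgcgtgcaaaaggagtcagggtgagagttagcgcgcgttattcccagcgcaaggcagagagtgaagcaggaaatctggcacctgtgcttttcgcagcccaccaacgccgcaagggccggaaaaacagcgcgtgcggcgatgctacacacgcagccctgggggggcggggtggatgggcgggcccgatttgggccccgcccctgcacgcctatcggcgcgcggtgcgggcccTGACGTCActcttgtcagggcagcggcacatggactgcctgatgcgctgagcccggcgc
Nfil3, minus strand of chr13:52980990-52981289: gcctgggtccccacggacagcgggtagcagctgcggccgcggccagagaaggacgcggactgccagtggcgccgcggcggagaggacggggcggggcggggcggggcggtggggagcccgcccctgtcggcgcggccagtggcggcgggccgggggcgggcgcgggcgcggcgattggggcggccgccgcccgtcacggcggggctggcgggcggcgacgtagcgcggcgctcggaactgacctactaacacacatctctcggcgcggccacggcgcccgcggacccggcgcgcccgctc
The Tef window holds an E-box that begins 127 bases before the start, and the window at its other listed start holds one 138 bases before. Across 32851 RefSeq promoter windows, 7.15% held this E-box. The Hlf window holds a cyclic AMP response element 9 bases before the start, which 1.79% of windows held. The D-box forms were in 0.938% and 0.119% of windows and in none of the windows of the 4 genes. The Dbp and Nfil3 windows held none of the letters searched, which says nothing of sites elsewhere.

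In undisturbed mice each of the 4 genes had a daily course, and that of Nfil3 ran opposite to that of Dbp. Dbp was lowest at light onset and highest at dark onset, with a 3.09-fold span. Nfil3 was highest at light onset and lowest at dark onset, with a span of 1.18 on the log2 scale, while Tef and Hlf varied by 1.42-fold and 1.32-fold. Levels are the deposited log2 values, in which 1 unit is a doubling. Among 13842 genes tested for time of day, 40.7% were called at an adjusted p below 0.05 (limma F-test, Benjamini-Hochberg), so a call alone does not set the members apart. Dbp had the smallest p of all genes in this test (adjusted p = 6.04e-18). The test also called Tef (adjusted p = 9.31e-13), Hlf (6.93e-09) and Nfil3 (2.7e-13). Of the tissue markers it called 3 of 3 for endothelium and 0 to 2 for each other tissue or cell type. The endothelium gene Cldn5 was highest at ZT0 and lowest at ZT12, with a range of 1.02 on the log2 scale. The summed linear level of the 3 endothelium markers was 86.45 to 95.25 at ZT0 and 56.26 to 72.42 at ZT12. The part of these markers in the daily courses was not tested.

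Dbp, the PAR bZIP gene with the widest daily course, lay at 5.06 to 5.70 in the 8 ZT0 controls, with a median of 5.40. Its ZT3 controls were at 5.52, 5.63 and 5.67. Its ZT6 controls were at 6.39, 6.47, 6.60, 6.61 and 6.74. Every ZT6 animal was thus above every ZT3 and ZT0 animal, and the step from ZT3 to ZT6 was 0.96 (SE 0.13, adjusted p = 9.8e-06). At ZT12 the 5 controls were at 6.93 to 7.15, and at ZT18 they had come down to 6.17 to 6.40. The ZT12 animals lay above all other controls, and ZT0 and ZT3 did not differ beyond their spread (0.21, SE 0.12, adjusted p = 0.319). ZT18 and ZT6 were next to each other in order and differed by -0.26 (adjusted p = 0.0522), which missed the threshold.

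Tef, whose protein activates D-box genes in many tissues, was at 7.53 to 7.79 (median 7.63) in ZT0 controls. It was at 8.02 to 8.20 at ZT12, above every ZT0, ZT3 and ZT6 animal. Its order of means from ZT3 at 7.61 over ZT0 at 7.65, ZT6 at 7.78 and ZT18 at 8.02 to ZT12 at 8.12 left the neighbours ZT3 and ZT0, and ZT18 and ZT12, within their spread (adjusted p = 0.748 and 0.114), while ZT6 differed from ZT0 (0.12, adjusted p = 0.0328) and not from ZT3 beyond the threshold (adjusted p = 0.18). Hlf, a PAR bZIP gene best known from a leukaemia fusion, had its highest mean at ZT18. Its means were 6.97 at ZT3, 7.01 at ZT0, 7.02 at ZT6, 7.30 at ZT12 and 7.37 at ZT18. No pair among ZT0, ZT3 and ZT6 passed the threshold (adjusted p = 0.78 to 0.886), nor did ZT12 against ZT18 (adjusted p = 0.374).

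Nfil3, the repressor of the set, was at 3.41 to 3.91 (median 3.65) in ZT0 controls and at 2.32, 2.40, 2.44, 2.49 and 2.67 at ZT12. The ZT12 animals lay below all other controls, the nearest of which was a ZT6 animal at 2.74. ZT6 controls were at 2.74 to 3.30 and ZT18 controls at 2.89 to 3.16, 2 groups that overlapped (difference 0.06, adjusted p = 0.67).

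**Figure D1:**
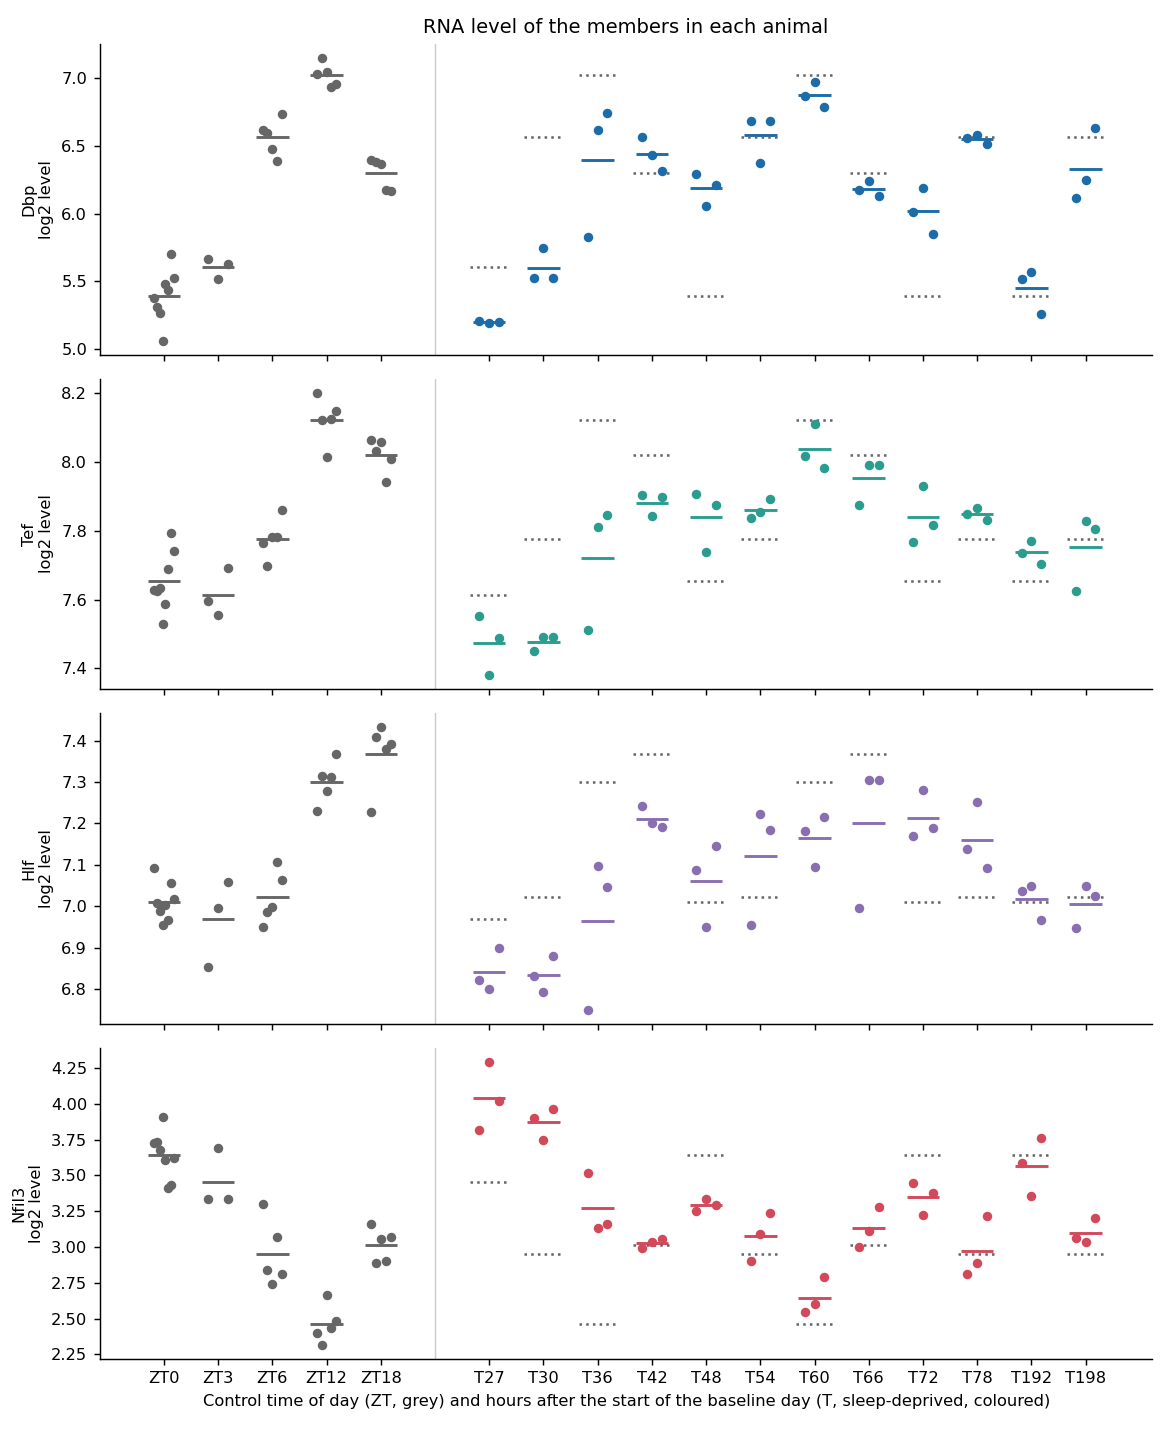
RNA level (log2) of each gene in every animal, with undisturbed controls in grey by time of day and deprived groups in colour by hours. Solid bars are group means and dotted bars are the mean of the controls of the same time of day; at T30 the 3 Dbp points lie at 5.52 to 5.75 under a control mean of 6.56.

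During enforced wakefulness Dbp was lower and Nfil3 was higher than in controls of the same time of day, and rose and fell are used here in that sense. Within the deprived animals the mean of Dbp was 5.20 at T27 and 5.60 at T30, while controls went from 5.61 at ZT3 to 6.56 at ZT6. The mean of Nfil3 was 4.04 at T27 and 3.87 at T30, while controls went from 3.45 to 2.95. The gaps to controls were wider at T30 than at T27 in the means, and the difference between the gaps did not pass its own test. At T27, 15.6% of all genes were called, and 2 of the 4 members were among them. At T30 all 4 were called while 31.6% of all genes were, and at T36 all 4 were called while 11.9% were. The PAR bZIP genes were lower and Nfil3 was higher at each of these calls.

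At T27, Dbp was at 5.20, 5.20 and 5.21 against 5.52 to 5.67 in ZT3 controls. The groups did not overlap, and the change was -0.40 (SE 0.14, adjusted p = 0.0358). This call was lost when ZT3 replicate 2 or 4 or any T27 animal was left out, with changes of -0.37 to -0.41 and adjusted p of 0.0764 to 0.116. Nfil3 was at 3.82, 4.02 and 4.29 against 3.33, 3.33 and 3.69, and rose by 0.59 (SE 0.13, adjusted p = 0.00104). Tef differed by -0.14 (adjusted p = 0.122) and Hlf by -0.13 (adjusted p = 0.217), and neither passed. Tissue markers also moved at this time. Of the choroid plexus markers, 2 of 2 measured were lower at T27, Ttr (which encodes the carrier transthyretin) by -3.22 and Kl by -0.41, and 2 of 3 meninges markers were lower, Slc6a13 by -0.49 and Slc13a4 by -0.54. The summed linear level of the choroid plexus markers was 9.65 to 190 in ZT3 controls and 4.69 to 6.74 at T27. Of 6 cortical neuron markers Tbr1 was lower (-0.17), and of 3 microglia markers P2ry12 was lower (-0.21). The part of these markers in the T27 results was not tested.

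At T30, the end of the 6 h awake, Dbp was at 5.52, 5.53 and 5.75, below all ZT6 controls at 6.39 to 6.74. Dbp fell by 0.96 on the log2 scale (SE 0.13), which is 1.95-fold lower (adjusted p = 6.95e-08). The T30 mean of 5.60 was close to the ZT3 control mean of 5.61. Nfil3 was at 3.75, 3.90 and 3.96, above all ZT6 controls at 2.74 to 3.30. It rose by 0.93 (SE 0.12, 1.90-fold, adjusted p = 5.36e-08). Tef was at 7.45, 7.49 and 7.49 against 7.70 to 7.86. The groups did not overlap and Tef fell by 0.30 (SE 0.06, adjusted p = 6.45e-05). Hlf was at 6.79, 6.83 and 6.88 against 6.95 to 7.11, and fell by 0.18 (SE 0.06, adjusted p = 0.0278). The Hlf call was lost without ZT6 replicate 3 or 4 or without T30 replicate 1 or 3, with changes of -0.15 to -0.17 and adjusted p of 0.069 to 0.108. Some glial markers were called at T30 as well: the oligodendrocyte gene Mog was lower (-0.38), and of 3 microglia markers Cx3cr1 (-0.19) and P2ry12 (-0.31) were lower and Tmem119 (0.30) was higher. Of the 2 striatum markers measured, 1 was lower. The part of these markers in the T30 results was not tested. From T27 to T30 the gap to controls changed beyond the test's threshold for no member (Dbp step -0.56, adjusted p = 0.388), where 0.00722% of genes, a single gene, were called. A step here and below is the change of this gap between 2 times, not of the level within deprived animals.

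At T36, 6 h after the handling ended and at dark onset, the PAR bZIP genes were still low and Nfil3 was still high. Dbp was at 5.83, 6.61 and 6.74 against 6.93 to 7.15 at ZT12, and fell by 0.63 (SE 0.13, adjusted p = 0.000434). T36 replicate 1 was the lowest of its group for Dbp, Tef and Hlf and the highest for Nfil3. Without it the Dbp change was -0.34 (adjusted p = 0.0698), so the size and call of Dbp depended on this animal. The call was also missed with T36 and ZT12 animals alone in the fit (-0.68, adjusted p = 0.0634). Tef was at 7.51, 7.81 and 7.84 against 8.02 to 8.20, a fall of 0.40 (SE 0.06, adjusted p = 1.76e-06). Without that animal Tef was still called (-0.29, adjusted p = 0.000684), as were Hlf (-0.22, adjusted p = 0.0325) and Nfil3 (0.69, adjusted p = 0.000474). Hlf was at 6.75, 7.05 and 7.10 against 7.23 to 7.37, a fall of 0.33 (SE 0.06, adjusted p = 0.00029). Nfil3 was at 3.13, 3.16 and 3.52 against 2.32 to 2.67, a rise of 0.82 (SE 0.12, 1.76-fold, adjusted p = 2.63e-06). From T30 to T36 the step of no member passed (Dbp 0.34, adjusted p = 0.221), where 11.4% of genes were called. Without T36 replicate 1 the Dbp step was 0.62 (adjusted p = 0.00393).

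**Figure D2:**
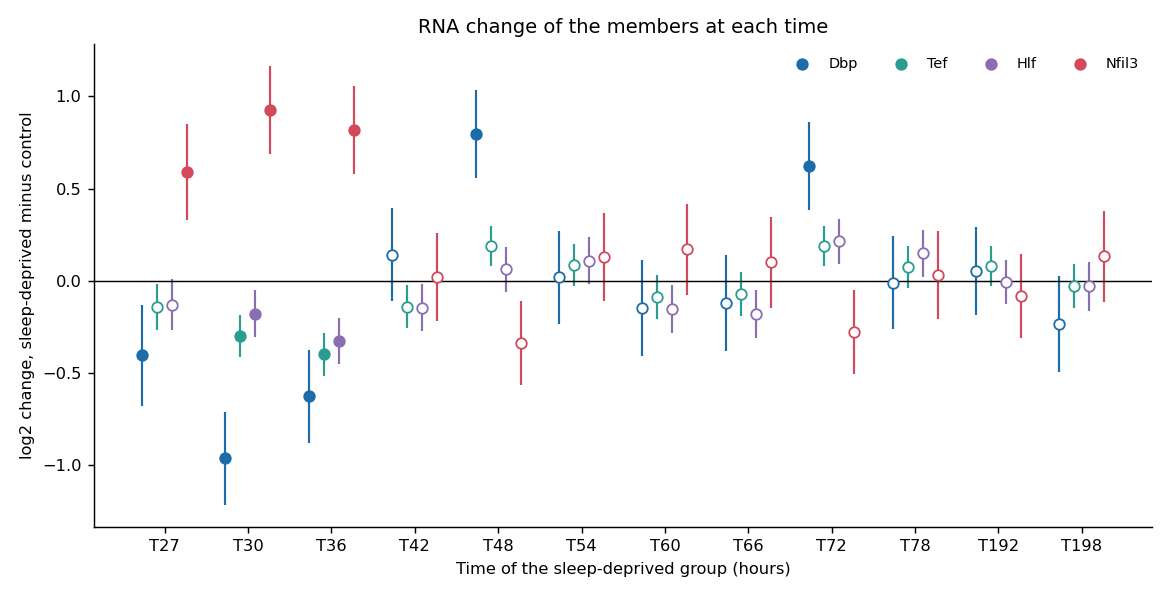
log2 change of each gene, deprived minus control of the same time of day, with 95% confidence intervals from the model. Filled points are called at adjusted p below 0.05 over all genes; Dbp lies at -0.96 at T30 and at 0.79 at T48.

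In the night after deprivation no member was called, although Tef was below all its controls, and at light onset of the next day Dbp stood above its controls. At T42, 1.05% of genes were called and no member was (Dbp 0.14, adjusted p = 0.702; Nfil3 0.02, adjusted p = 0.966). Tef was at 7.84, 7.90 and 7.90 at T42 against 7.94 to 8.06 in ZT18 controls, groups that did not overlap (-0.14, adjusted p = 0.268). Hlf was at 7.19, 7.20 and 7.24 against 7.23 to 7.43, below 4 of the 5 controls in every animal (-0.15, adjusted p = 0.302). The effects at T42 differed from those at T36 for Dbp (step 0.77, SE 0.17, adjusted p = 0.00611) and for Nfil3 (-0.80, SE 0.16, adjusted p = 0.00265), where 3.3% of genes were called. The Tef step narrowly missed the threshold (0.26, SE 0.08, adjusted p = 0.0526). Without T36 replicate 1 the Dbp step was 0.48 (adjusted p = 0.0954), and the Nfil3 step stayed called at -0.67 (adjusted p = 0.0321). At T48 Dbp was at 6.06, 6.21 and 6.29, above all 8 ZT0 controls at 5.06 to 5.70. It rose by 0.79 (SE 0.12, 1.73-fold, adjusted p = 5.34e-05), where 1.27% of genes were called. Tef differed by 0.19 (adjusted p = 0.0641), Hlf by 0.06 (adjusted p = 0.725) and Nfil3 by -0.34 (adjusted p = 0.129), none of them called. The summed linear level of 3 oligodendrocyte markers was 2178 to 2482 at T48 against 1639 to 2170 in ZT0 controls, although none of the 3 was called, and the astrocyte gene Aldh1l1 was lower (-0.31). Their part in the T48 results was not tested.

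The Dbp difference at T48 was compared with those at the neighbouring times, and the steps were called only by a narrow margin. The step from T42 to T48 was 0.65 (SE 0.17, adjusted p = 0.039) for Dbp and 0.33 (SE 0.08, adjusted p = 0.0193) for Tef, where 1.01% of genes were called. The step from T48 to T54 was -0.78 for Dbp (SE 0.17, adjusted p = 0.0386), where 0.101% of genes were called. Within the deprived animals the mean of Dbp was 6.44 at T42, 6.19 at T48 and 6.58 at T54. The Dbp step to T54 missed the threshold among genes above the 25th percentile of level (adjusted p = 0.0505). Over single animals left out, the Dbp step to T48 had adjusted p of 0.0218 to 0.159, the Tef step 0.0108 to 0.0749, and the Dbp step to T54 0.00837 to 0.248. The Dbp step to T48 was lost in 9 of 19 such cases, without ZT0 replicate 2 or J2, ZT18 replicate 2, 3 or 4, T42 replicate 4 or 6, or T48 replicate 1 or 4. The Tef step was lost in 4, without T42 replicate 4 or 6 or T48 replicate 1 or 4. The Dbp step to T54 was lost in 10, without ZT0 replicate 2, J1 or J2, ZT6 replicate 2, 4 or J2, T48 replicate 1 or 4, or T54 replicate 1 or 2.

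At later times Dbp was called once more. At T54, T60 and T198 0.00722% of genes were called, at T66 0.0795%, and no member among them. At T72, again light onset, Dbp was at 5.85, 6.01 and 6.19, above all 8 ZT0 controls. It rose by 0.63 (SE 0.12, 1.54-fold, adjusted p = 0.0416), and was the 1 gene of 13842 called at that time, which is 0.00722%. This call depended on the setting, and its direction did not. Over single animals left out the change ran from 0.54 to 0.71 with adjusted p from 0.0114 to 0.282, and 8 of 11 of these missed the threshold: ZT0 replicates 1, 2, 3, 5 and J1 and each of the 3 T72 animals. With ZT0 controls labelled T0 alone it was 0.67 (adjusted p = 0.172), and with those labelled T24 alone 0.54 (adjusted p = 0.221). Tef differed by 0.19 (adjusted p = 0.326), Hlf by 0.21 (adjusted p = 0.306) and Nfil3 by -0.28 (adjusted p = 0.53). At T78 and T192 limma called 0% of genes, with 838 and 1039 genes at an unadjusted p below 0.05. After 7 days of recovery Dbp was at 5.26, 5.51 and 5.57 at T192 and at 6.11, 6.25 and 6.63 at T198, within or overlapping the range of controls.

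The difference between the activator gene Dbp and the repressor gene Nfil3 was taken in each animal, since both levels come from 1 library. In controls this difference was 1.75 ± 0.34 (SD, n = 8) at ZT0 and 4.56 ± 0.17 (SD, n = 5) at ZT12. At T30 it was 1.73 ± 0.23 (SD, n = 3) against 3.61 ± 0.27 (SD, n = 5) in ZT6 controls. All T30 animals were below all controls, and the gap of -1.88 gave an exact two-sided permutation p of 0.0179 (0.0537 adjusted over 12 times), the smallest that 3 against 5 animals allow. At T36 the gap was -1.44, with the same exact p of 0.0179 (0.0537 adjusted). At T48 the gap was 1.14 and at T72 it was 0.91, each with an exact permutation p of 0.00606 (0.0364 adjusted), the smallest that 3 against 8 animals allow. At T27 the gap was -0.99, with an exact permutation p of 0.1, which is the least that 3 against 3 animals can give. At T60 the groups did not overlap either, with a smaller gap of -0.33 and an exact permutation p of 0.0357 (0.0857 adjusted).

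**Figure D3:**
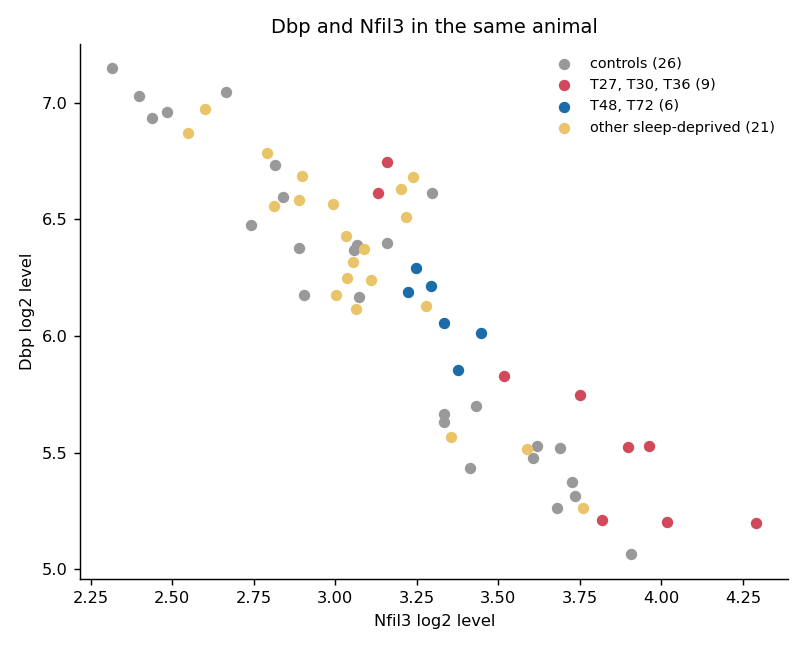
Dbp against Nfil3 log2 level in each of the 62 animals, with controls in grey, T27, T30 and T36 in red, T48 and T72 in blue and other deprived animals in yellow. Over the 17 group means the levels ran opposite to each other, with Pearson r of -0.947, and the T27 and T30 animals lie at the lower right with Nfil3 at 3.75 to 4.29.

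The members also varied together among themselves over the 17 group mean levels, controls included, which share batches and the daily course. Tef and Hlf went together (Pearson r 0.92), Dbp and Tef with r of 0.81, and Dbp and Hlf with r of 0.64. Nfil3 ran opposite to Tef (r -0.90) and to Hlf (r -0.76). Among 9896 other genes of sufficient level, those most like Dbp by Pearson r were Ciart (0.948), a clock repressor, Nr1d2 (0.944), a nuclear receptor of the REV-ERB family, and Bhlhe41 (0.944), a repressor at E-boxes. For Tef they were Hrh3 (0.943), a histamine receptor, Rufy1 (0.929), an endosomal trafficking adaptor, and Per3 (0.925), a Period gene. For Hlf they were Phyhip (0.917), Slc30a4 (0.906), a zinc transporter, and Cacnb2 (0.904), a calcium channel subunit. For Nfil3 they were Col4a1 (0.959), a basement membrane collagen, Kremen1 (0.941), a receptor for Dickkopf proteins, and Ubtf (0.929), a factor for ribosomal RNA transcription.

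Clock genes moved in both directions while the members changed. Of 8 clock genes with a described D-box, 3 rose and 1 fell at T27, 2 rose and 3 fell at T30, and 2 fell at T36. Over all genes 15.6%, 31.6% and 11.9% were called at these times. At T27 the rises were Per2 (1.35, adjusted p = 1.3e-06), Per1 (0.89) and Cry1 (0.47), which encode repressors of the clock, and the fall was Rorb (-0.33), a nuclear receptor. At T30 Per1 (1.03) and Per2 (0.97) rose, and Nr1d1 (-0.33), Rorb (-0.27) and Per3 (-0.22) fell. At T36 Per3 (-0.33) and Nr1d2 (-0.33) fell. The median of the list was -0.07 at T30, beside -0.00292 over all genes, and -0.31 at T36, beside 0.00397.

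Of 11 genes that drive or repress E-boxes, some of them in the list above, 4 rose and none fell at T27 and 6 rose and 3 fell at T30, where 15.6% and 31.6% of all genes were called. Bhlhe40, a repressor at E-boxes, rose by 0.90 at T27 and 0.55 at T30. At T30 Npas2 (0.41), Clock (0.27) and Arntl (0.23), which encode the activators at E-boxes, rose as well, while Ciart (-0.65) and Bhlhe41 (-0.52) fell. At T36 Arntl (0.41) rose and Ciart (-0.84), Bhlhe41 (-0.61) and Per3 fell. At T48 the picture turned for some of these genes: Ciart (0.70), Bhlhe41 (0.40), Nr1d1 (0.39) and Nr1d2 (0.37) rose, and Arntl fell by 0.37 on the log2 scale (adjusted p = 0.000355). At T72 none of these clock genes was called, with Ciart at 0.63 (adjusted p = 0.306) and Nr1d1 at 0.47 (adjusted p = 0.105).

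Genes known from liver and other mouse tissues to depend on PAR bZIP factors were measured in 3 of 7 cases. At T30 Pdxk, which encodes pyridoxal kinase and makes the vitamin B6 cofactor, rose by 0.24 (adjusted p = 9e-05) and Por, which encodes an electron donor of cytochrome P450 enzymes, by 0.20. Alas1 did not pass, and none of the 3 passed at T27 or T36. Of the related C/EBP family, 5 of 6 genes were measured: Cebpb rose at T27 (0.40), and Cebpd (0.67) and Ddit3 (0.18) rose at T30. Over all genes 15.6% were called at T27, 31.6% at T30 and 11.9% at T36, so these calls alone do not set the 2 lists apart.

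**Figure D4:**
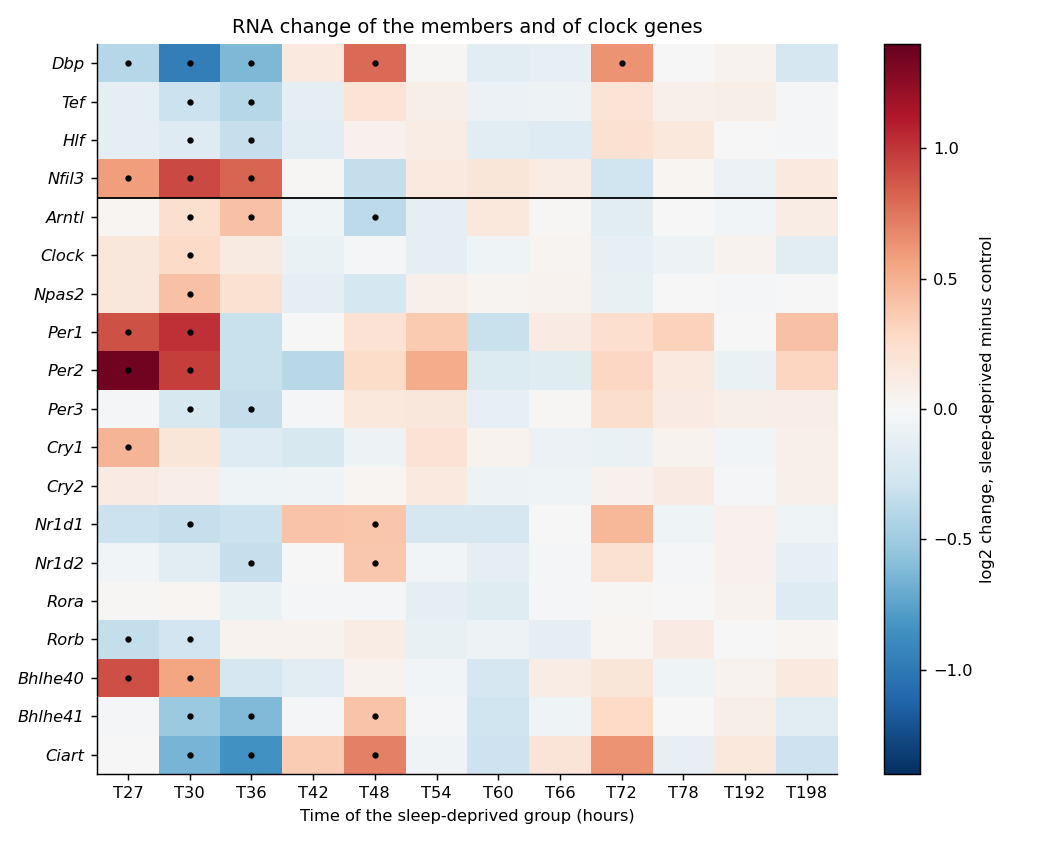
log2 change, deprived minus control of the same time of day, of the 4 members (above the line) and of clock genes (below it), red where higher and blue where lower. Dots mark an adjusted p below 0.05 over all genes; the Dbp row is blue at T27, T30 and T36 and red at T48 and T72.

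Chromatin near Dbp changed at 2 of the 9 peaks at T30, and no peak was called at the other 11 times; a difference between times was not tested. Both peaks had less signal after 6 h awake than in ZT6 controls. Both were also called for time of day, with ZT6 highest, but the tests share the ZT6 controls, so a peak high in these animals is favoured in both. The peak over the start of Dbp was not called at any time. Signal is the authors' normalised ATAC value, tested as log2(signal + 0.5), a scale that understates changes of weak peaks. Distances are from the RefSeq start of Dbp to the centre of a peak.

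The upstream peak lies at -990 bases from the start (chr7:45704007-45704508, mm10), within the span of the neighbouring gene Car11. Its signal was 18.4, 18.8, 20.8, 22.7 and 23.8 in ZT6 controls and 9.95, 13.1 and 13.3 at T30. The groups did not overlap, and the change was -0.77 (SE 0.17, adjusted p = 0.00373), where 2.6% of all peaks were called. In controls it was highest at ZT6 (mean 20.9) and lowest at ZT0 (mean 12.7), with a 1.64-fold span (adjusted p = 0.000903), where 1.39% of peaks were called for time of day. The T30 signals lay in the range of ZT0 controls, which ran from 9.39 to 16.0. At T36 this peak was at 19.7, 20.1 and 20.6, within the 16.3 to 23.6 of ZT12 controls, while Dbp RNA was called lower.

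The peak inside the gene lies 836 bases after the start (chr7:45705981-45706185, mm10). Its signal was 7.47, 7.58, 8.04, 8.83 and 9.22 in ZT6 controls and 2.90, 4.29 and 4.61 at T30. The mean signal of this peak was low, at 5.58 over all animals and 3.93 at T30, so few reads lie behind each T30 value. Again no animal overlapped, and the change was -1.05 (SE 0.25, adjusted p = 0.00812). Its time of day span was 2.11-fold, highest at ZT6 and lowest at ZT0 (adjusted p = 0.00497). Without T30 replicate 1 or T30 replicate 4, 1 of these 2 peaks stayed called. At the peak over the start (chr7:45704708-45705522) the signal was 26.2, 29.6 and 34.3 at T30 against 33.0 to 44.0 in ZT6 controls, groups that overlapped (-0.35, SE 0.15, adjusted p = 0.215). T36 replicate 1, the animal of its group lowest in Dbp RNA, had the lowest signal of that group at this peak, 27.3 against 43.9 and 46.2. It was also lowest at the peak inside the gene (3.62 against 5.42 and 6.60) but highest at the upstream peak (20.6 against 19.7 and 20.1).

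The other 6 peaks lie at -5407, -4532, 1734, 2535, 10001 and 12806 bases, and their changes at T30 ran from -0.60 to 0.03, none called. No Dbp peak was called at T27 (0.689% of all peaks called), T36 (0.618%), T48 (0.00153%) or at T42, T54, T60, T66, T72, T78, T192 and T198, where limma called 0% of peaks. Among the 9, 4 peaks were at an unadjusted p below 0.05 at T198, 1 each at T36 and T54, and 0 at the remaining times other than T30, where 5 were. Over all 130727 peaks, 8715 were below that p at T198, 16119 at T36, 11104 at T54 and 19762 at T30. At T66 a single ATAC library was available, and its spread was taken from the remaining groups. Peaks within 20 kb of the other members numbered 5 for Tef, 12 for Hlf and 5 for Nfil3. Of these 1 was called against controls: a peak within Nfil3, 7348 bases after its start (chr13:52973408-52973973), rose by 1.03 at T30 (SE 0.30, adjusted p = 0.036). At T30 2.6% of all peaks were called. This peak is weak, with a mean signal of 3.78 over all animals, and no alternatives were run for it. At T27 the same peak was at 1.12 (SE 0.32, adjusted p = 0.0741), with groups that overlapped. A Tef peak 28406 bases after the nearest start varied with time of day (adjusted p = 0.035, 2.05-fold from ZT3 to ZT12).

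**Figure D5:**
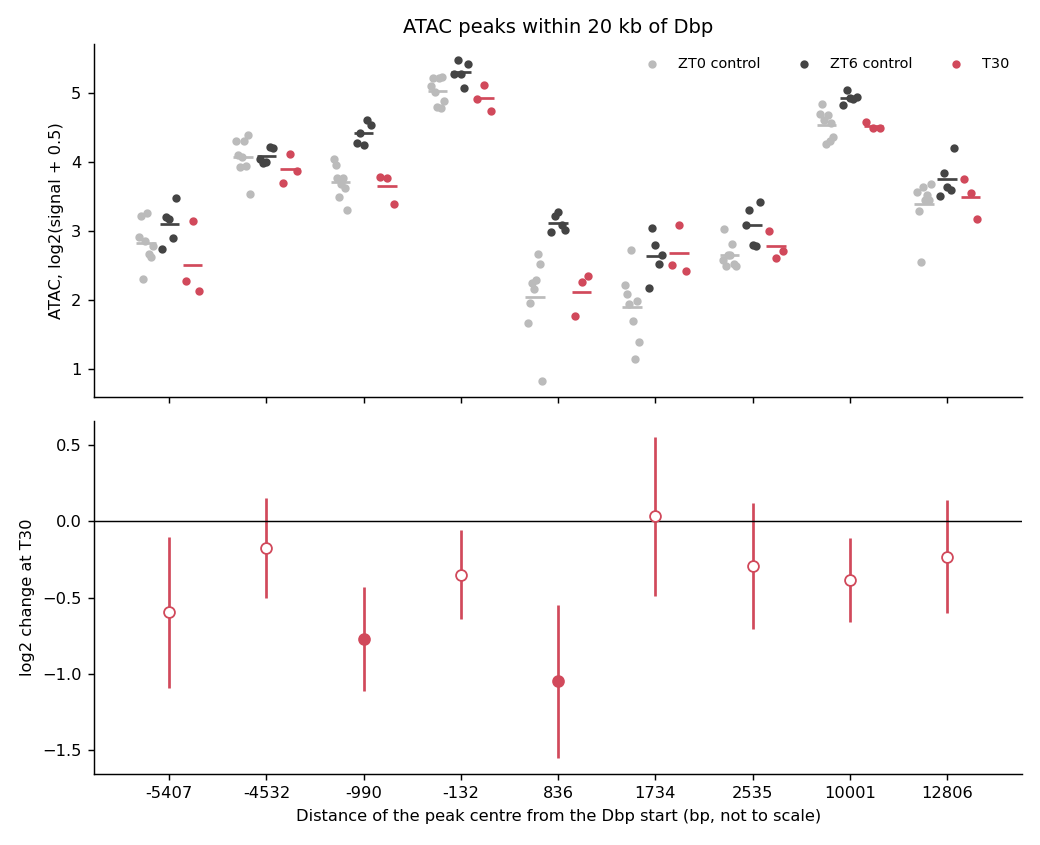
Top, ATAC signal on a log2 scale at the 9 peaks near Dbp in ZT0 controls, ZT6 controls and T30 animals, by distance of the peak centre from the Dbp start. Bottom, log2 change at T30 against ZT6 controls with 95% confidence intervals, filled where called; the filled peaks are those at -990 and 836 bases.

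In the same animals, the ATAC signal and the RNA level of Dbp were compared as deviations from the means of their groups over 58 animals. None of the 9 peaks passed after adjustment over the 9. The peak over the start had Pearson r of 0.298 (permutation p = 0.0232, adjusted 0.209) and Spearman rho of 0.21 (permutation p = 0.115, adjusted 0.426). Without the 2 animals farthest from the median, r was 0.108, so the relation rested on them, and within batches r was 0.532 in batch 1 and -0.151 in batch 2. At the upstream peak r was -0.098, and at the peak inside the gene 0.11.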

How the data were processed

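RNA-seq and ATAC-seq were measured in mouse cortex. The authors deposited RNA as log2 values per gene, which carry an offset of 0.5 and an adjustment for batch, and ATAC-seq as normalized signal per peak on mm10. kallisto 0.43.0, sleuth 0.29.0, Bowtie2, MACS2 2.1.1, bedtools 2.26.0 and HTSeq 0.6.1 are named in the submitters' processing notes. No label or header says whether RNA values were scaled for gene length, so levels were not compared between genes. The value of Dbp minus Nfil3 is therefore read only between groups. RNA values were tested as deposited and ATAC values as log2(signal + 0.5), with limma 3.58.1 in R 4.3.3, with group and batch as terms and an intensity trend, over 62 RNA and 59 ATAC animals. A repeat ATAC library of a ZT0 animal was left out. p-values were adjusted by the Benjamini-Hochberg method over all genes or all peaks, with a threshold of 0.05. Dbp minus Nfil3 was tested by exact permutation, and same-animal relations by 100000 permutations. Gene positions, names and promoters come from RefSeq (GRCm38.p6). The fits were tested on simulated data. All 4 members were named, with the 3 genes most like each and, from each pathway list, the largest called changes. The members and lists were chosen with earlier results of these data known. Alternatives covered batch, controls, filters, pseudocounts, the replicate block and single animals left out.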

Additional observations from a re-analysis of the deposited data

Results flagged for a closer look

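In 52 control groups of values tested for a sample far from the others, 2 were marked, where chance marks about 1 in 20. Hlf was at 7.23 in the ZT18 control replicate 2, the lowest of its 5 animals. The peak 12806 bases after the Dbp start had a signal of 5.35 in ZT0 control replicate 1, the lowest of its 8 animals.

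The effect of deprivation differed between neighbouring times for 3 members by the limma test of the difference. For Dbp the difference was 0.77 from T36 to T42 (adjusted p = 0.00611), 0.65 from T42 to T48 (adjusted p = 0.039) and -0.78 from T48 to T54 (adjusted p = 0.0386). For Tef it was 0.33 from T42 to T48 (adjusted p = 0.0193). For Nfil3 it was -0.80 from T36 to T42 (adjusted p = 0.00265).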

How the results depend on the processing

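Of the 12 calls of members against controls, 8 held under every alternative run and all 12 kept their direction. The other 4 were Dbp at T27, T36 and T72 and Hlf at T30. The log2 changes below are deprived minus control.

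Replicate numbers did not pair the animals: the median correlation of same-numbered animals was -0.000693 over 222 RNA pairs and -0.00214 over 197 ATAC pairs. With the replicate block these calls were lost: Dbp at T27 (-0.39, adjusted p = 0.0754, 1 member called), Hlf at T30 (-0.17, adjusted p = 0.0531), Dbp at T72 (0.63, adjusted p = 0.18, 0 called), the steps from T42 to T48 of Dbp (0.67, adjusted p = 0.132) and Tef (0.36, adjusted p = 0.0593, 0 called), and the Dbp step from T48 to T54 (-0.77, adjusted p = 0.0709, 0 called). Small uncalled values changed sign under the block, with Nfil3 at -0.045 at T42 and -0.0062 at T198 and Hlf at 0.019 at T192 and 0.0039 at T198.

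Without a batch term, Tef at T48 was 0.19 and became called (2 members), and Hlf at T192 was 0.0062. The Tef step from T36 to T42 was 0.26 and became called as well (adjusted p = 0.0468, against 0.0526 in the main fit). With genes above the 25th percentile, the Tef step was again 0.26 and called (adjusted p = 0.0469), and the Dbp step from T48 to T54 was -0.78 (0 called). Without an intensity trend Dbp at T72 was 0.63 (0 called). With the 2 groups alone in the fit, Dbp lost its call at T72 (0.71, adjusted p = 0.11, 0 called) and at T36 (-0.68, adjusted p = 0.0634). With ZT0 controls labelled T0 it was 0.67 at T72 and with those labelled T24 0.54 (0 called each), and Hlf at T192 was 0.014. With controls of the same batch, Tef at T48 was 0.23 (2 called). With the same batch and with the 2 groups alone, signs of uncalled values changed for Nfil3 at T42 (-0.0074), Dbp at T66 (0.0083), T78 (0.016) and T192 (-0.030), and Tef (0.022) and Hlf (0.038) at T198.

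Dbp minus Nfil3 with controls of the same batch was -1.93 at T30, -1.49 at T36 and -0.26 at T60, where so few controls cannot reach the threshold. In the same animals, r without the 2 farthest was 0.156 at the peak at -4532, 0.108 over the start, -0.036 at 836 and -0.27 at 1734, and with group and batch means it was 0.258 over the start and 0.26 at 836. Within 50 kb of Dbp, 4 peaks were called at T30, where 2.6% of all peaks were called. The peaks added by this wider window overlap the genes Sec1, Ntn5, Sult2b1 or Gm31597. A test on recovered ATAC reads was not run.

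Over single animals left out, Dbp ran from -0.45 to -0.37 at T27 (1 to 2 members called), -0.80 to -0.34 at T36, -0.034 to 0.12 at T54, 0.54 to 0.71 at T72 (0 to 1 called), -0.061 to 0.041 at T78 and -0.0070 to 0.15 at T192. Its steps ran from 0.16 to 0.62 into T36 (0 to 1 called), 0.48 to 0.94 into T42 (1 to 3 called), 0.59 to 0.72 into T48 (0 to 2 called) and -0.84 to -0.67 into T54 (0 to 1 called). Tef ran from 0.15 to 0.24 at T48 (1 to 2 called) and -0.065 to 0.037 at T198, with steps of -0.16 to 0.0048 into T36, 0.15 to 0.32 into T42 and 0.29 to 0.38 into T48. Hlf ran from -0.20 to -0.15 at T30, -0.022 to 0.020 at T192 and -0.060 to 0.00037 at T198, with steps of -0.093 to 0.0095 into T30 and -0.0092 to 0.13 into T54. Nfil3 ran from -0.015 to 0.065 at T42, -0.092 to 0.11 at T78 and -0.18 to 0.024 at T192. Dbp minus Nfil3 ran from -0.25 to 0.0049 at T54, -0.40 to -0.21 at T60, -0.29 to -0.13 at T66, -0.12 to 0.11 at T78 and -0.040 to 0.31 at T192. Dbp peaks called at T30 numbered 1 to 2. The cause of these changes was not tested.

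Groups of 3 animals limit these comparisons, and the deposited RNA values carry no read counts, so counting error per gene is unknown. The T60, T66, T192 and T198 animals share batch 2, so their values rest on the batch term or on few controls.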
